A study of Mus musculus with 24 samples.

Results

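The transcripts of 7 intermediate filament genes were followed through a study of the RNA mark N6-methyladenosine (m6A) in mouse sensory ganglia. The genes were chosen by name, with earlier results of these data known. Nefh, Nefm and Nefl encode the heavy, medium and light neurofilament proteins, and Ina, Prph, Vim and Nes encode alpha-internexin, peripherin, vimentin and nestin. They made up 7 of 24421 gene symbols in the RNA-seq counts and 7 of 24411 in the MeRIP-seq counts, and all 7 passed the filter on low counts in both assays. In miCLIP, which reads m6A at single bases, they carried 80 of the 18677 sites listed after sciatic nerve lesion and 75 of the 14446 sites listed for naive ganglia.

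Intermediate filaments are rope-like polymers of the cytoskeleton. In large myelinated axons, the light neurofilament protein assembles with the medium and heavy ones, and the resulting filaments set the calibre of the axon and with it the speed of conduction. Peripherin and alpha-internexin are neuronal filament proteins that can join the same polymers, and peripherin is best known from peripheral neurons. Vimentin is the filament protein of fibroblasts, endothelial cells and many glia, and nestin is best known from neural progenitors. The m6A mark is written on messenger RNA by the Mettl3 and Mettl14 complex, and readers of the mark act on the stability and translation of the marked transcript.

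All tissue was L4/5 dorsal root ganglia (DRG) of C57BL/6 mice, the ganglia that hold the cell bodies of sciatic nerve axons. The RNA-seq groups were Mettl14cKO SNLD1, Mettl14cKO naive, WT SNLD1 and WT naive, with 3 libraries each. Mettl14cKO stands for a conditional knockout whose genotype is labelled Mettl14-/-, and the labels give neither the Cre driver nor the cells it acts in. SNLD1 is day 1 after a sciatic nerve lesion, and naive libraries carry a treatment label that names sham surgery or nerve crush alike, so whether they had a sham operation is not known. MeRIP-seq compared RNA pulled down with an m6A antibody (IP, 3 libraries per condition) with input RNA (2 per condition), all wild type. miCLIP had 1 wild-type library per condition, titled SNL and naive, and the day of the SNL library is not labelled. The labels do not say that replicates came from separate mice, so p-values measure the spread between these samples, which may be technical.

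RNA-seq libraries held 5707837 to 12639160 counts and MeRIP-seq libraries 846785 to 19653733. Mettl14 stood at 14.2 to 18.9 CPM in the 6 Mettl14cKO libraries, against 19.4 to 24.1 CPM in the 6 WT libraries (log2 −0.46, SE 0.12, adjusted p = 0.045 with edgeR over both conditions). This call ended without 11 of the 12 libraries in turn (adjusted p up to 0.142), and which exons were deleted is not labelled, so counts from outside the deleted part may be included. Atf3, a marker of axotomised neurons, stood at 163 to 505 CPM in the 6 SNLD1 libraries, against 8.51 to 21.2 CPM in the 6 naive ones. At SNLD1 it was lower in Mettl14cKO, at 163 to 197 CPM, than in WT, at 243 to 505 CPM (log2 −1.08, SE 0.22, adjusted p = 0.0202, edgeR). In naive ganglia Atf3 stood at 13.4 to 21.2 CPM in Mettl14cKO, against 8.51 to 11.1 CPM in WT (log2 0.76, SE 0.25, adjusted p = 0.376, edgeR). Neither its genotype difference over both conditions (log2 −0.16, adjusted p = 0.675) nor its difference of injury effects (log2 −1.84, adjusted p = 0.228) passed in edgeR. CPM is the count scaled to a common library total, after TMM normalisation. The 12 pan-neuronal markers summed to 6869 to 9568 CPM in Mettl14cKO libraries and to 8191 to 9801 CPM in WT libraries, so neuronal RNA was present throughout. In whole ganglia, fewer cells of a type and less RNA per cell cannot be told apart.

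The miCLIP sites of the 7 genes lay mostly on the neurofilament transcripts. Nefh had 23 sites in the SNL list and 21 in the naive list, Nefm 19 and 18, Nefl 13 and 14, and Prph 13 in each. Vim had 8 and 3, Nes 4 in each, and Ina none in the SNL list and 2 in the naive list. Of the 113 different sites, 15 had at least 3 mutated reads in either list, and all 15 were present in both lists. By list these were 10 of 80 SNL sites and 7 of 75 naive sites, against 1.95% and 2.06% of all sites. How many such sites of the whole lists are present in both was not counted. The 15 best supported sites are shown by their 5 bases, 5′ to 3′ on the gene's strand, with the methylated adenosine in capitals. Coordinates are those of the deposited mm10 lists and span the 5 bases.
Nefh, chr11:4945299-4945303, minus strand: ggAcc
Nefh, chr11:4945140-4945144, minus strand: ggAcc
Nefh, chr11:4943870-4943874, minus strand: ggAca
Nefh, chr11:4941347-4941351, minus strand: ggAct
Nefh, chr11:4939711-4939715, minus strand: agAct
Nefm, chr14:68124192-68124196, minus strand: agAca
Nefm, chr14:68124156-68124160, minus strand: ggAca
Nefm, chr14:68122840-68122844, minus strand: ggAca
Nefm, chr14:68120969-68120973, minus strand: agAcc
Nefl, chr14:68084909-68084913, plus strand: agAcc
Nefl, chr14:68086048-68086052, plus strand: ggAcc
Nefl, chr14:68086507-68086511, plus strand: agAcc
Nefl, chr14:68086684-68086688, plus strand: agAcc
Prph, chr15:99055283-99055287, plus strand: ggAcc
Vim, chr2:13574764-13574768, plus strand: tgAcc

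Every one of the 15 has a C after the methylated A, as does 100.0% of the sites in both whole lists. All 15 have G before the A. Over every site of the 7 genes, A instead of G stood before the methylated base in 21 of 80 SNL sites (26.3%) and 18 of 75 naive sites (24.0%), against 17.3% and 16.5% of all sites in the lists. The 4 bases GGAC, a frequent m6A context, made up 31.3% of the members' SNL sites and 36.0% of their naive sites, against 38.0% and 39.1% of all sites.

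The Nefh site at chr11:4941347-4941351 had the highest number of mutated reads of the 7 genes in the SNL list, 5 of 10 reads (exact binomial 95% interval 18.7 to 81.3%). In the naive list the same base had 2 of 12 reads (16.7%, 2.09 to 48.4%). The Nefl site at chr14:68086684-68086688 had 3 of 39 reads in the SNL list (7.69%, 1.62 to 20.9%) and 5 of 36 in the naive list (13.9%, 4.67 to 29.5%). The intervals overlapped at both. The Nefh bases with the most mutated reads in the naive list, at chr11:4945140-4945144 and chr11:4945299-4945303, had 1 of 26 and 1 of 17 reads in the SNL list, against 4 of 20 and 3 of 12 in the naive list. Nefm had 3 mutated reads in the SNL list at chr14:68124192-68124196 (3 of 30, against 1 of 24 in the naive list) and chr14:68124156-68124160 (3 of 32, against 2 of 25). It had 3 in the naive list at chr14:68122840-68122844 (1 of 17 in the SNL list, against 3 of 14) and chr14:68120969-68120973 (2 of 37, against 3 of 41). The Prph site had 3 of 16 reads in the SNL list and 1 of 8 in the naive list. The Vim site, near the 5′ end of the gene, had 3 of 7 reads in the SNL list and 1 of 4 in the naive list. Intervals cover counting error only, and with 1 library per condition no difference between the lists has a replicate check.

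Sites of Nefh, Nefm, Nefl and Prph had more reads than sites at large, and more of them were listed in both conditions. Their medians were 15 to 32 reads in the SNL list and 15 to 25 in the naive list, against 4 over all sites in each list. Vim had a median of 7 and 4 reads, Nes of 4 and 2.5, and the naive sites of Ina of 3. Of the members' SNL sites 52.5%, and of their naive sites 56.0%, were at the same base in the other list, against 20.5% and 26.5% of all sites. The other genes held few of these bases, since Vim shared 1 of 8 and 1 of 3 sites, Nes 1 of 4 in each list and Ina none. The part of read depth in this difference was not tested. At the 42 bases listed in both, the members had 72 mutated of 944 reads in the SNL list (7.63%, 6.02 to 9.51%) and 71 of 875 in the naive list (8.11%, 6.39 to 10.1%). The mutated share was higher in the SNL list at 17 of these bases and lower at 25. Most sites rested on a single mutated read, 61 of 80 in the SNL list (76.3%) and 52 of 75 in the naive list (69.3%). Over all sites these shares were higher, at 89.7% and 90.2%.

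The sites lay at different places along the genes. In Nefh (chr11:4938754-4948064, minus strand) 8 of 23 SNL sites and 10 of 21 naive sites lay in the last 25% of the span. Nefm (chr14:68119545-68125004, minus strand) had 11 of 19 SNL sites and 8 of 18 naive sites in the first 25%. In Nefl (chr14:68083863-68089095, plus strand) 5 of 13 and 7 of 14 lay in the first 25%, and 3 and 0 in the last. Prph (chr15:99053579-99058978, plus strand) had none in the first 25% in either list, with 5 of 13 SNL sites and 8 of 13 naive sites in the last. Nefm also carried 2 SNL sites and 1 naive site on the opposite strand, which were left out of its count. Vim had 4 of 8 and 3 of 3 sites in the first 25%, and Nes had 2 of 4 and 4 of 4 in the last. The 2 naive sites of Ina lay 9 bases apart, each with 1 mutated of 3 reads. Ina (chr19:47014681-47025327), Vim (chr2:13574311-13582826) and Nes (chr3:87971093-87980451) lie on the plus strand. Spans are whole genes with introns in GRCm38.p6, and exons and untranslated regions were not used here. For Nefh, Nefm and Nefl the strand is that of most of their sites.

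**Figure D1:**
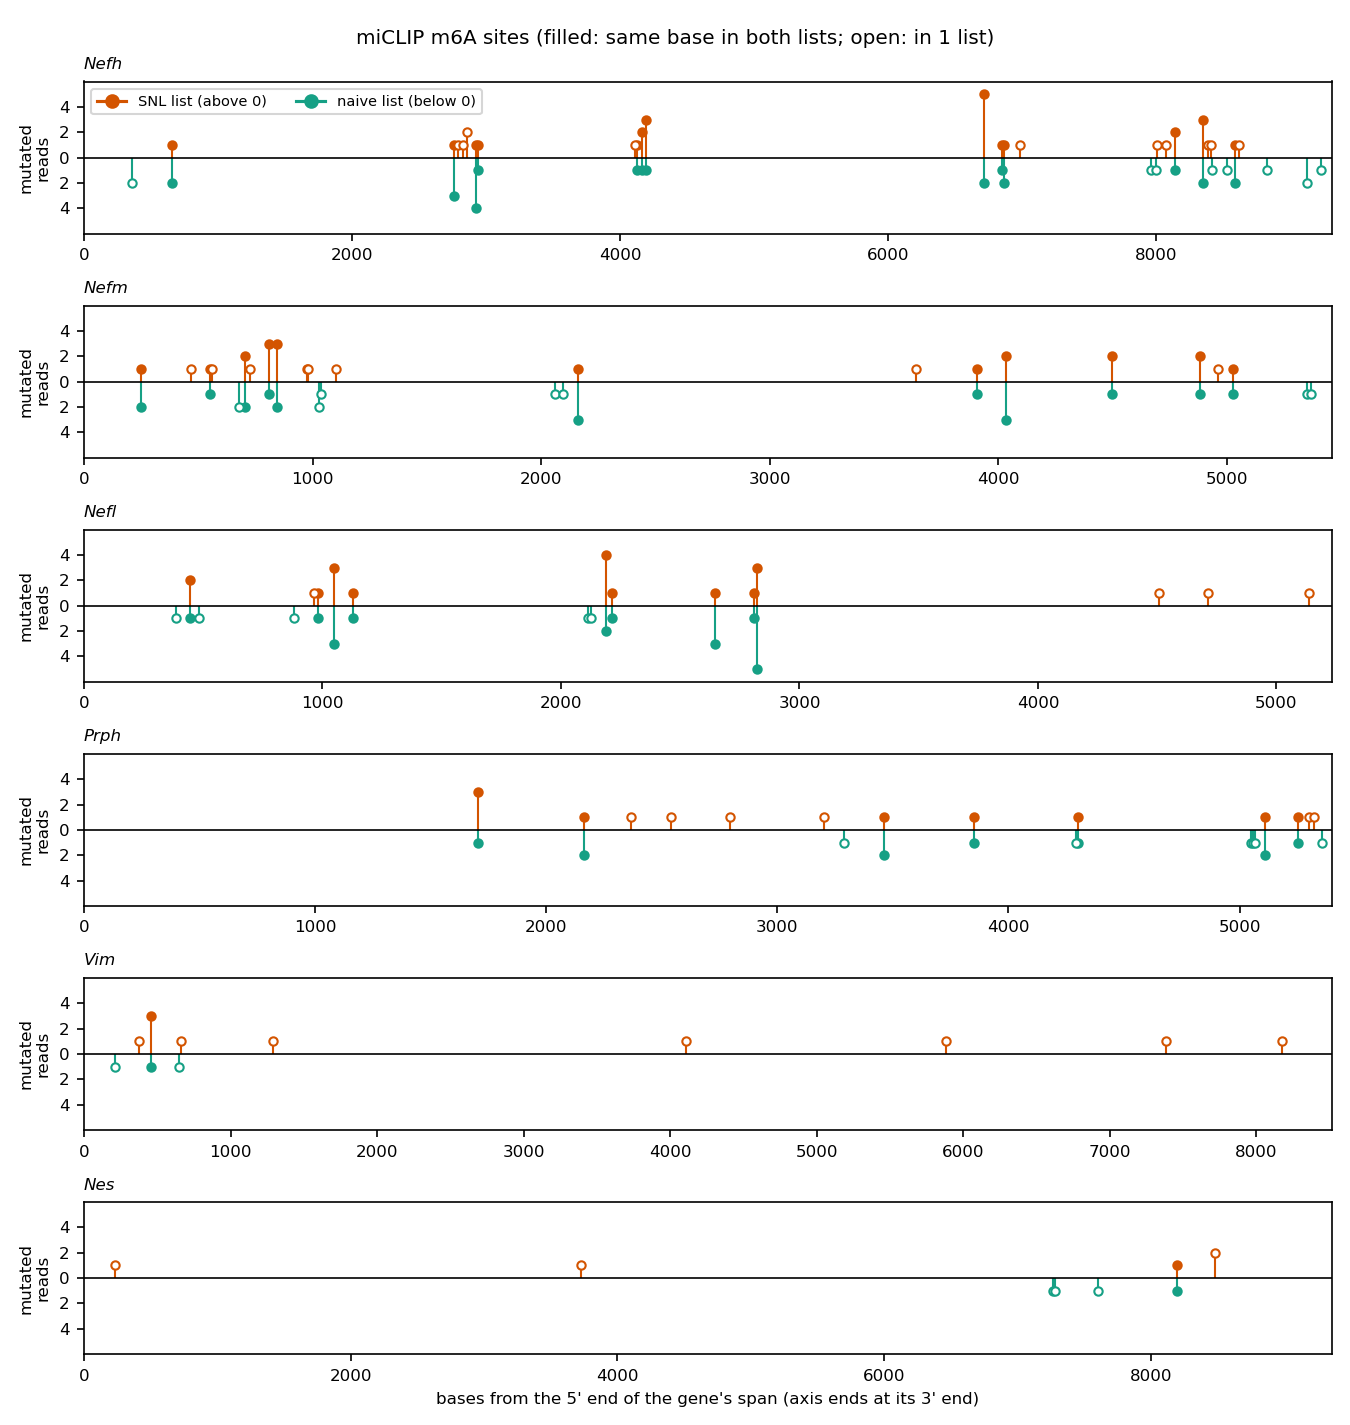
miCLIP sites along 6 of the 7 genes, in bases from the 5′ end of the gene's span (horizontal axis, each panel ending at the 3′ end); stems show mutated reads per site (vertical axis), SNL list above 0 and naive list below. Filled points are bases in both lists and open points bases in 1 list: Nefh, Nefm and Nefl have 13, 11 and 9 shared bases, and Vim and Nes 1 each.

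The 3 neurofilament mRNAs were lower in Mettl14cKO ganglia than in WT ganglia, and the other 4 filament genes did not pass the test (adjusted p under 0.05). Over both conditions, Nefh stood at 0.562 of its WT level (95% interval 0.485 to 0.651), Nefl at 0.578 (0.469 to 0.712) and Nefm at 0.636 (0.538 to 0.752). Peripherin, also a neuronal filament gene, stood at 1.05 of its WT level (0.898 to 1.22). Among the 7 filament genes 3 were called lower, while of all 13291 genes tested 1.29% were called lower and 3.33% in either direction. Since the 7 genes were chosen with earlier results known, these shares are no test of the set.

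Nefh had 326, 305 and 299.9 CPM in the Mettl14cKO SNLD1 libraries, against 562, 553 and 643 CPM in the WT SNLD1 libraries. Naive ganglia had 417, 402 and 419 CPM in Mettl14cKO, against 753, 579.7 and 746 CPM in WT. The highest Mettl14cKO library was therefore below the lowest WT library. Over both conditions the log2 difference was −0.83 (SE 0.10, adjusted p = 0.00012, edgeR). It was −0.92 (SE 0.14, adjusted p = 0.0036) at SNLD1 and −0.75 (SE 0.14, adjusted p = 0.0305) in naive ganglia, where 0.512% and 0.113% of all genes were called lower. The naive call rested on single libraries: it ended without WT naive library 1 (adjusted p = 0.165) or 3 (0.141), or without Mettl14cKO naive library 1 (0.0641), 2 (0.141) or 3 (0.105), while the log2 difference stayed between −0.86 and −0.69. It also ended when only the 6 naive libraries were fitted (adjusted p = 0.0832). The SNLD1 call held without any 1 of its 6 libraries.

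Nefm, the medium subunit, had 350.1, 292 and 368 CPM in the Mettl14cKO SNLD1 libraries, against 511, 465 and 557 CPM in WT SNLD1. Naive ganglia had 422, 330.5 and 390.1 CPM in Mettl14cKO, against 709.5, 501 and 649.5 CPM in WT. No Mettl14cKO library reached a WT library of the same condition, as for 10.3% of all genes at SNLD1 and 4.65% in naive ganglia. The log2 difference over both conditions was −0.65 (SE 0.11, adjusted p = 0.00378). Within 1 condition it was −0.60 at SNLD1 (SE 0.16, adjusted p = 0.0718) and −0.70 in naive ganglia (SE 0.16, adjusted p = 0.0977), and neither passed.

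Nefl, the light subunit that the other subunits need for assembly, had 837, 780.02 and 949 CPM in the Mettl14cKO SNLD1 libraries, against 1613, 954 and 1725 CPM in WT SNLD1. In naive ganglia it had 776, 840.3 and 863 CPM in Mettl14cKO, against 1706, 1121 and 1609 CPM in WT. The groups did not overlap, but at SNLD1 the highest Mettl14cKO library and WT library 2 were close. In both conditions WT library 2 had the lowest Nefh, Nefm, Nefl and Prph of its group. The log2 difference over both conditions was −0.79 (SE 0.14, adjusted p = 0.00465). It was −0.74 at SNLD1 (SE 0.20, adjusted p = 0.0739, or −0.97 and 0.0154 without WT SNLD1 library 2) and −0.84 in naive ganglia (SE 0.20, adjusted p = 0.12). For Nefm and Nefl both conditions passed in DESeq2, where adjusted p lay between 0.00522 and 0.0203, and in edgeR without the filter on low counts. For each of the 3 neurofilament genes the call over both conditions held without any 1 of the 12 libraries, with adjusted p at most 0.000831 for Nefh, 0.0173 for Nefm and 0.0228 for Nefl. In all 3, every one of the 6 Mettl14cKO libraries lay below every one of the 6 WT libraries, as did 0.805% of all genes tested.

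**Figure D2:**
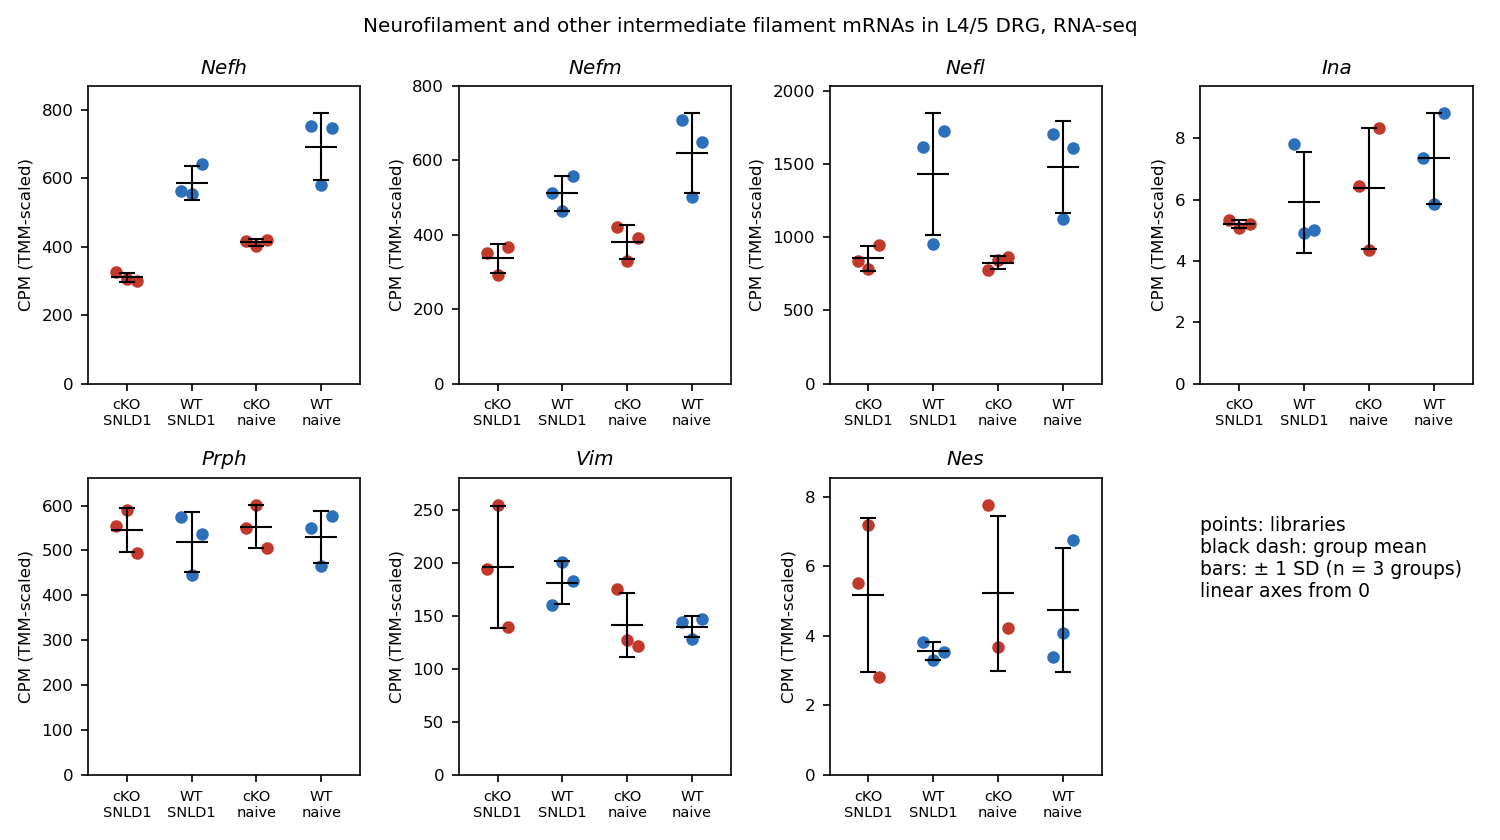
TMM-scaled CPM (vertical axis, linear from 0) of the 7 genes in the RNA-seq libraries of each group (points), with the group mean and ± 1 SD (n = 3). Nefh, Nefm and Nefl are lower in every Mettl14cKO library than in every WT library, while Prph stays between 444 and 602 CPM throughout.

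Peripherin did not pass in any comparison. Prph had 554, 591 and 493 CPM in the Mettl14cKO SNLD1 libraries, against 574, 444 and 538 CPM in WT SNLD1. In naive ganglia it had 550.4, 602 and 506 CPM in Mettl14cKO, against 549, 465 and 576 CPM in WT. The groups overlapped in both conditions, and the log2 difference over both was 0.07 (SE 0.11, adjusted p = 0.799). Its 95% interval, −0.16 to 0.29, does not reach the values of the 3 neurofilament genes.

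The remaining members were less abundant. Vim had 194, 255 and 139 CPM in the Mettl14cKO SNLD1 libraries, against 160.04, 201 and 183 CPM in WT SNLD1, and 176, 127 and 121 CPM in Mettl14cKO naive, against 144, 128 and 147 CPM in WT naive. Its genotype difference was 0.07 (SE 0.14, adjusted p = 0.864). Ina lay between 4.36 and 8.32 CPM in the 6 Mettl14cKO libraries and between 4.92 and 8.82 CPM in the 6 WT libraries (log2 −0.19, SE 0.20, adjusted p = 0.687). Nes lay between 2.81 and 7.77 CPM in Mettl14cKO and between 3.32 and 6.77 CPM in WT (log2 0.33, SE 0.26, adjusted p = 0.581). With 20 to 116 counts per library, the intervals of Ina (−0.61 to 0.23) and Nes (−0.23 to 0.88) are wide.

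The proportions among the neurofilament subunits were described as ratios of counts within a library. Gene length was not taken into account, so a ratio can be set against the same ratio in another group but says nothing of which subunit was more abundant. Peripherin to Nefl was 0.647 ± 0.120 in Mettl14cKO SNLD1, against 0.378 ± 0.0793 in WT SNLD1, and 0.671 ± 0.0730 in Mettl14cKO naive, against 0.365 ± 0.0466 in WT naive (SD, n = 3 each). The lowest Mettl14cKO library, at 0.5199, was above the highest WT library, at 0.466. The ratios between subunits lay closer together. Nefm to Nefl was 0.394 ± 0.0224 in Mettl14cKO SNLD1, against 0.376 ± 0.0967 in WT SNLD1, and 0.463 ± 0.0755 in Mettl14cKO naive, against 0.422 ± 0.0223 in WT naive, with overlapping libraries. Nefh to Nefm was 0.930 ± 0.114 in Mettl14cKO SNLD1, against 1.15 ± 0.0456 in WT SNLD1, where its libraries reached 1.04 in Mettl14cKO and started at 1.098 in WT. In naive ganglia it was 1.09 ± 0.115 in Mettl14cKO, against 1.12 ± 0.0533 in WT. Nefh to Nefl was 0.366 ± 0.0431 in Mettl14cKO SNLD1, against 0.433 ± 0.127 in WT SNLD1, and 0.501 ± 0.0320 in Mettl14cKO naive, against 0.474 ± 0.0389 in WT naive, with overlapping libraries in each condition. These ratios were not tested. The separation of peripherin to Nefl restates the lower Nefl and the overlapping Prph levels given above, and is no further result.

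**Figure D3:**
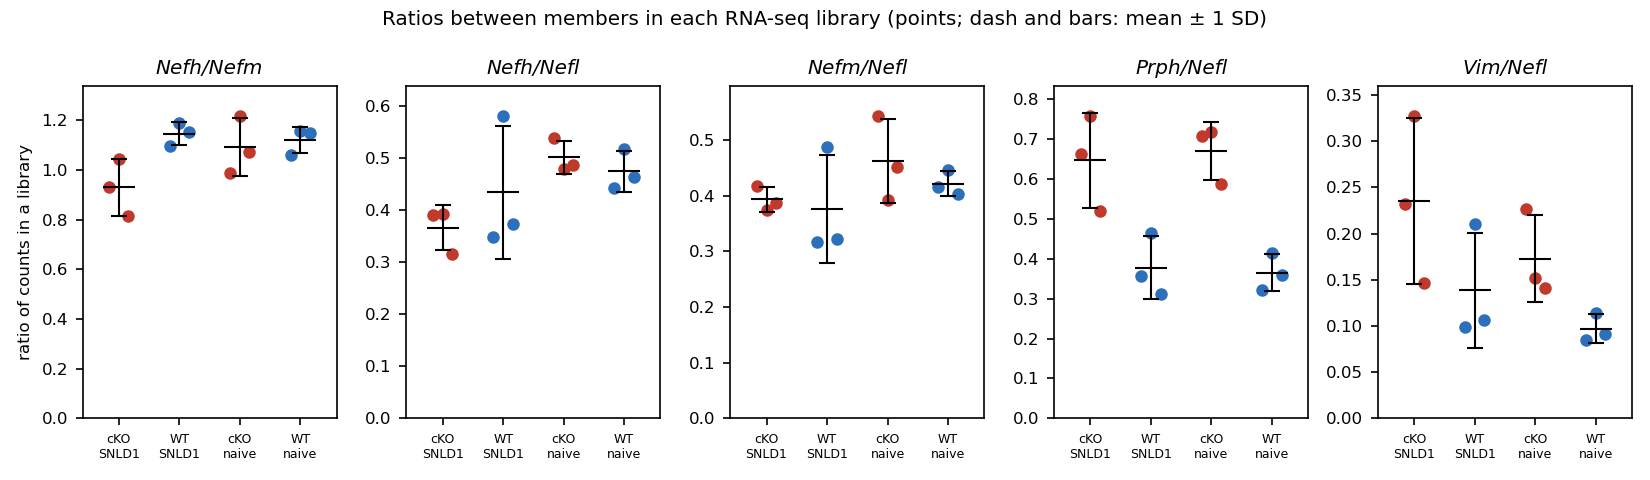
Ratios of counts between members (vertical axes, linear from 0) in each RNA-seq library (points), with the mean and ± 1 SD of the 3 libraries of a group. The Prph/Nefl ratio separates the 6 Mettl14cKO libraries, from 0.5199 upwards, from the 6 WT libraries, up to 0.466, while Nefm/Nefl overlaps. The Prph/Nefl separation restates the lower Nefl in Mettl14cKO.

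None of the 7 genes passed in the injury comparisons. Of all genes 2.56% were called between SNLD1 and naive over both genotypes, 0.685% in Mettl14cKO and 1.02% in WT. Nefh had the lower values after injury. Its log2 difference was −0.33 over both genotypes (SE 0.10, adjusted p = 0.109), −0.41 in Mettl14cKO (SE 0.14, adjusted p = 0.255) and −0.24 in WT (SE 0.14, adjusted p = 0.825). In Mettl14cKO the 3 SNLD1 libraries, at most 326 CPM, all lay below the 3 naive ones, from 402 CPM, as did 9.38% of all genes. The averaged difference passed in DESeq2 (adjusted p = 0.0333) and without WT naive library 2 (−0.38, adjusted p = 0.0405). Nefm differed by −0.23 over both genotypes (SE 0.11, adjusted p = 0.423) and Nefl by 0.00 (SE 0.14, adjusted p = 0.999).

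The mean levels of Nefh were 310.5 ± 14 CPM in Mettl14cKO SNLD1, 413 ± 9.15 in Mettl14cKO naive, 586 ± 49.4 in WT SNLD1 and 693 ± 98.1 in WT naive (SD, n = 3), which is also their order. Its libraries overlapped between the WT groups and not between the other neighbours. Nefm had the same order, at 337 ± 39.5 CPM in Mettl14cKO SNLD1, 381 ± 46.3 in Mettl14cKO naive, 511 ± 46.1 in WT SNLD1 and 620.03 ± 107 in WT naive, and its libraries overlapped between SNLD1 and naive in each genotype. Nefl stood at 855 ± 86.03 CPM in Mettl14cKO SNLD1, 826 ± 44.7 in Mettl14cKO naive, 1431 ± 417 in WT SNLD1 and 1479 ± 313 in WT naive, and again SNLD1 and naive overlapped in each genotype.

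Vimentin had the higher values after injury, without passing. It averaged 196 ± 57.9 CPM at SNLD1 and 142 ± 29.9 CPM in naive Mettl14cKO ganglia, and 181 ± 20.4 CPM at SNLD1 and 139.8 ± 10.1 CPM in naive WT ganglia (SD, n = 3). All 3 WT SNLD1 libraries lay above the 3 WT naive ones, as did 6.08% of all genes. The log2 difference was 0.42 over both genotypes (SE 0.14, adjusted p = 0.15), 0.47 in Mettl14cKO (SE 0.20, adjusted p = 0.396) and 0.37 in WT (SE 0.20, adjusted p = 0.771). The averaged difference passed without Mettl14cKO SNLD1 library 3 (0.52, adjusted p = 0.0313) and without the filter on low counts (0.42, adjusted p = 0.0359). Prph differed by −0.02 (SE 0.11), Ina by −0.32 (SE 0.20) and Nes by −0.23 (SE 0.26) over both genotypes, with adjusted p between 0.538 and 0.961.

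The injury effects of the 2 genotypes were compared directly. Between Mettl14cKO and WT they differed by log2 −0.17 to 0.41 over the 7 genes, each with adjusted p = 0.998. No gene of the 13291 passed in this comparison (0% called with edgeR, 492 genes at an unadjusted p under 0.05, and 3 genes with DESeq2).

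**Figure D4:**
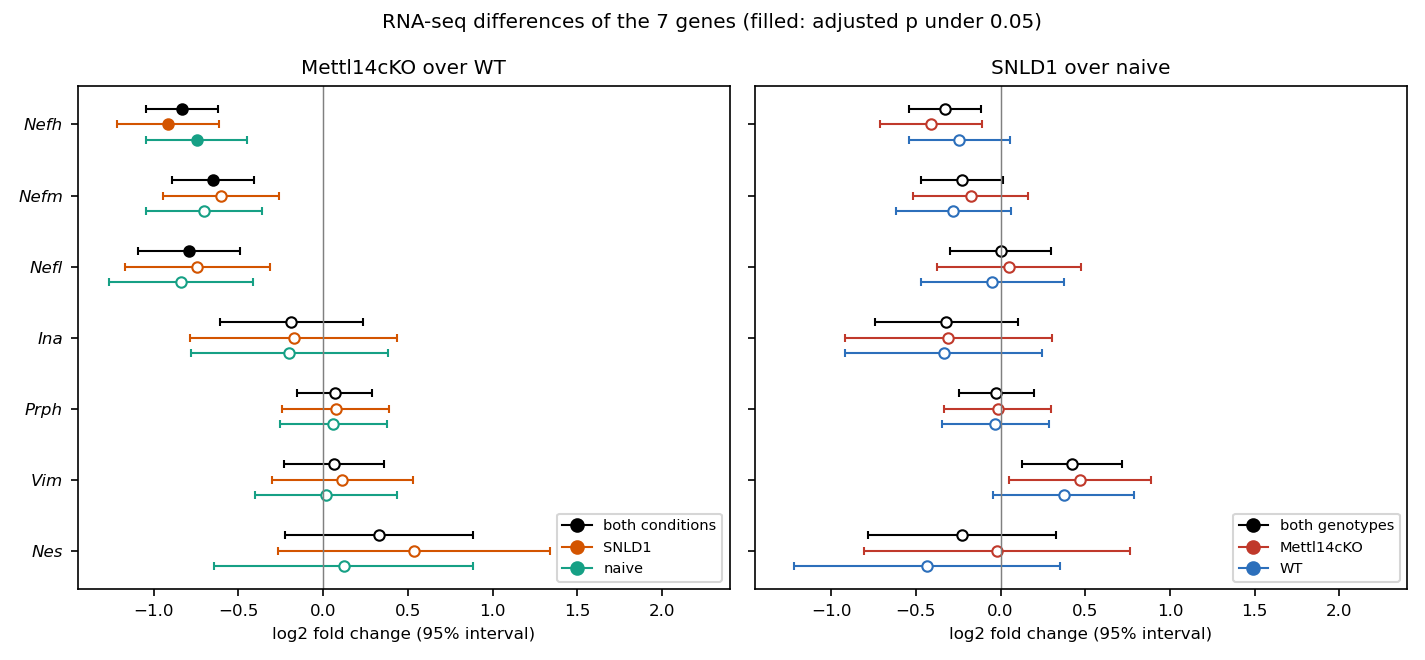
Log2 fold changes with 95% intervals (horizontal axis) of the 7 genes, for Mettl14cKO over WT (left) and SNLD1 over naive (right), over all libraries and within each condition or genotype. Filled points passed at an adjusted p under 0.05: Nefh in all 3 genotype comparisons, Nefm and Nefl over both conditions, and no gene after injury.

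Genes known to act with the filaments were read from lists. Of 17 other intermediate filament genes 11 could be tested. Gfap, the filament protein of reactive glia, averaged 2.80 ± 0.759 CPM at SNLD1 and 0.905 ± 0.885 CPM in naive Mettl14cKO ganglia, and 4.11 ± 1.64 CPM at SNLD1 and 0.307 ± 0.135 CPM in naive WT ganglia (SD, n = 3). It rose after injury by log2 2.66 over both genotypes (SE 0.40, adjusted p = 0.000602), and no other gene of the list passed. Within WT it rose by 3.62 (adjusted p = 0.00185), and within Mettl14cKO the difference was 1.70 (adjusted p = 0.215), while the difference between these effects did not pass (log2 −1.92, SE 0.83, adjusted p = 0.998). For genotype none of the 11 passed, with a median of −0.12 beside 0.00 over all genes. The neurofilament partner synemin, Synm, differed by −0.25 (adjusted p = 0.241).

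Counts in these lists stand beside 1.29% of all genes called lower and 3.33% in either direction for genotype over both conditions. Of 20 tested linker, kinase, motor and turnover genes, 1 fell in Mettl14cKO and none rose, with a median of −0.08, so a single call is near the share over all genes. That gene was Kif5b, a kinesin motor that carries cargo along axons. It averaged 445 ± 39.9 CPM in Mettl14cKO SNLD1, against 695 ± 17.4 CPM in WT SNLD1, and 566 ± 28.2 CPM in Mettl14cKO naive, against 669.6 ± 98.7 CPM in WT naive. Its log2 difference over both conditions was −0.44 (SE 0.10, adjusted p = 0.0211), and the call ended without any of 4 of the 12 libraries (adjusted p up to 0.0826). After injury Cdk5r1, the activator of a kinase known to phosphorylate neurofilament tails, fell by 0.71 on the log2 scale over both genotypes (SE 0.17, adjusted p = 0.0291), a call that ended without any of 7 of the 12 libraries (adjusted p up to 0.107). Of 6 genes whose proteins bind or regulate neurofilament mRNA, Elavl4, a neuronal RNA-binding protein, fell in Mettl14cKO (log2 −0.41, SE 0.10, adjusted p = 0.0414). It averaged 815 ± 86.5 CPM in Mettl14cKO SNLD1, against 1205 ± 74.4 CPM in WT SNLD1, and 1052 ± 14.3 CPM in Mettl14cKO naive, against 1248 ± 202 CPM in WT naive. The call of Elavl4 ended without any of 10 of the 12 libraries (adjusted p up to 0.11), and the other 5 genes did not pass.

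Large myelinated neurons make most of the neurofilament in the ganglion. Of 14 of their markers none passed for genotype over both conditions, 10 were above 0, and the median was 0.12. They summed to 3197 to 3342 CPM in Mettl14cKO SNLD1, against 2459 to 2924 CPM in WT SNLD1, and to 2788 to 3283 CPM in Mettl14cKO naive, against 2540.4 to 3222 CPM in WT naive. In sums of markers, for this list and the others, the most abundant genes weigh most, and differences of sums were not tested. Esrrg had the smallest adjusted p of the list over both conditions (log2 0.55, SE 0.17, adjusted p = 0.0949). Parvalbumin (Pvalb), a marker of proprioceptors, differed by 0.67 at SNLD1 (SE 0.22, adjusted p = 0.159). It differed by −0.08 in naive ganglia (adjusted p = 0.99) and by 0.29 over both conditions (adjusted p = 0.366). Among the markers below 0 were Calb1 (−0.30) and Scn8a (−0.24). The 12 pan-neuronal markers had a median of −0.13 with none passing for genotype. Of these, Isl1 fell after injury over both genotypes (log2 −0.37, SE 0.09, adjusted p = 0.0427), a call that ended without any of 11 of the 12 libraries (adjusted p up to 0.148). Of 13 markers of small neurons the itch receptor Mrgpra3 fell (log2 −0.67, adjusted p = 0.0129), with a list median of −0.21. Its difference was −1.03 at SNLD1 (adjusted p = 0.0174) and −0.30 in naive ganglia (adjusted p = 0.825). The SNLD1 call ended without any of 3 of its 6 libraries (edgeR adjusted p up to 0.0868). After injury Mrgpra3 also fell over both genotypes (log2 −0.71, adjusted p = 0.00838). Within Mettl14cKO this was −1.07 (adjusted p = 0.015) and within WT −0.34 (adjusted p = 0.817), while the difference between these effects did not pass (adjusted p = 0.998). The injury call within Mettl14cKO ended without any of 3 of its 6 libraries (edgeR adjusted p up to 0.0806). Scn10a passed for genotype at SNLD1 (log2 −0.64, SE 0.16, adjusted p = 0.0479), a call that ended without any of 5 of its 6 libraries (adjusted p up to 0.231).

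A few markers of other cells passed for genotype over both conditions, and most did not. The 8 fibroblast markers summed to 5164.5 to 10696 CPM in Mettl14cKO SNLD1, against 3393 to 4160 CPM in WT SNLD1, and to 4403.5 to 6520 CPM in Mettl14cKO naive, against 3438 to 3819 CPM in WT naive. Of these Dcn, Pdgfra and Apod rose (log2 0.74, 1.03 and 0.97, adjusted p at most 0.00609). The collagen genes Col1a1, Col1a2 and Col3a1 stood at −0.54, −0.23 and −0.67 without passing, and the list median was 0.14, with 5 genes above 0 and 3 below. The 8 satellite glia markers summed to 2715.5 to 3381 CPM in Mettl14cKO SNLD1, against 4299 to 5271 CPM in WT SNLD1. In naive ganglia they summed to 2617 to 4356 CPM in Mettl14cKO, against 3805 to 5211 CPM in WT. Of the 7 tested, Fabp7 fell (log2 −1.34, adjusted p = 0.0418), a call lost in DESeq2 and without any of 9 of the 12 libraries (adjusted p up to 0.0956). The list median was −0.30, and Cdh19 alone stood above 0 (0.36, adjusted p = 0.153). The Schwann cell gene Ncmap rose (log2 0.87, adjusted p = 0.00385), with a list median of −0.03 over 10 genes. No marker of endothelial cells, mural cells, macrophages, neutrophils or skeletal muscle passed, and their medians were 0.01, 0.11, 0.28, −1.03 and 0.15. None of the markers in these lists was at 0 in all libraries of a group. The part of these marker differences in the neurofilament difference was not tested.

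Across libraries the filament genes were compared within each genotype, since the neurofilament levels of the genotypes do not overlap. Nefh and Nefm in WT had the smallest p of all pairs (Pearson r = 0.975, exact permutation p = 0.00278, Spearman rho = 0.943, exact permutation p = 0.0167, n = 6), and r was 0.897 without the 2 libraries farthest from the median. Within Mettl14cKO their r was 0.573 (exact permutation p = 0.2375). The next smallest p was that of Nefl and Nes in Mettl14cKO (Pearson r = −0.934, exact permutation p = 0.00694, n = 6). Of the 42 relations tested, 21 in each genotype, none passed after Benjamini-Hochberg adjustment, with a lowest adjusted p of 0.117. With n = 6 the exact permutation p has a floor at which a single pair cannot pass this adjustment, so no conclusion is drawn from it. Over all 12 libraries, the genes most like each member were named by Pearson r of log2 CPM among 9561 genes averaging 5 CPM or more. They were Slc25a26 (0.957) and Prune2 (0.953) for Nefh, Nefh itself (0.945) and Ubqln1 (0.940) for Nefm, and Atp1b1 (0.921) and Dnajb1 (0.920) for Nefl. For Prph they were Babam1 (0.950) and Hebp2 (0.906), and for Vim 1110046J04Rik (0.923) and Znrd1 (0.913). For Ina they were Tyw3 (0.923) and Syt7 (0.897), and for Nes Nkain2 (0.919) and Rab8a (0.917). These values share libraries and the split by genotype, and are the top of many.

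MeRIP-seq asked how far each transcript is enriched by the m6A antibody. None of the 7 genes passed between IP and input, and neither did any gene of the 14705 tested. At SNLD1 0% were called with edgeR, with 608 genes at an unadjusted p under 0.05 and 0 with DESeq2, and in naive ganglia 0% were called, with 915 and 4. The libraries differed much within a group, with rank correlations across genes of 0.711 to 0.887 between libraries of a group, against 0.967 to 0.984 in RNA-seq. SNLD1 IP library 2, SNLD1 input library 1 and naive IP library 2 held 1534778, 927807 and 846785 counts, and the other 7 libraries more than 2000000. IP over input is relative to the other transcripts, since both kinds of library are scaled to their totals.

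Nefh had 2108, 1397 and 1370.1 CPM in the SNLD1 IP libraries, against 363 and 1597 CPM in the SNLD1 inputs. Naive ganglia had 2817, 1982 and 1666 CPM in IP, against 508 and 2572 CPM in input. In each condition 1 input lay far below the IP libraries and the other among them. The log2 enrichment was 0.73 at SNLD1 (SE 0.94, adjusted p = 0.826) and 0.48 in naive ganglia (SE 0.93, adjusted p = 0.876). Its intervals, −1.26 to 2.71 and −1.48 to 2.45, include 0. Without the 3 smallest libraries, which leaves 1 input at SNLD1 that is assumed to vary like the other groups, Nefh stood at 0.12 at SNLD1 and 0.52 in naive ganglia.

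Nefm had 1784, 1044 and 1322 CPM in the SNLD1 IP libraries, against 769 and 785 CPM in the inputs, so that all 3 IP libraries were higher, as for 10.3% of all genes. In naive ganglia it had 2349, 1698 and 1604 CPM in IP, against 1094 and 2119 CPM in input, which overlapped. The log2 enrichment was 0.83 (SE 0.81, adjusted p = 0.799) at SNLD1 and 0.23 (SE 0.79, adjusted p = 0.935) in naive ganglia, or 0.99 and 0.30 without the 3 smallest libraries. Nefl stood at −0.20 (SE 0.85) and −0.36 (SE 0.84), Prph at −0.31 (SE 0.94) and −0.07 (SE 0.95), and Vim at −1.08 (SE 1.07) and −0.87 (SE 1.07), at SNLD1 and in naive ganglia. Ina stood at −0.09 (SE 0.96) and 0.60 (SE 0.97), and Nes at 0.13 (SE 0.97) and 0.80 (SE 0.99). The Vim IP libraries ran from 37.3 to 460.04 CPM at SNLD1 and from 21.7 to 289 CPM in naive ganglia.

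The enrichment changed with injury by log2 −0.68 to 0.60 over the 7 genes, each with adjusted p = 0.999943 and an SE of at least 1.11. No gene passed in this comparison (0% with edgeR, 30 at an unadjusted p under 0.05 and 0 with DESeq2). Within IP libraries alone the SNLD1 over naive differences of the 7 genes lay between −0.45 and 0.59, and within input libraries between −1.05 and 0.80. No gene of the table passed in either (0% with edgeR, 124 and 126 at an unadjusted p under 0.05, and 8 and 1 with DESeq2). The replicate numbers pair the IP libraries across conditions, and with the number as a block 1 gene passed within IP libraries, or 4 of 12735 when only the 6 IP libraries were fitted, a fit chosen after seeing the data. In all 3 pairs the SNLD1 library was below its naive partner for Nefh, Nefm and Ina, as for 17.9% of all genes, and above it for Prph and Vim, as for 16% of all genes. In the paired fit of the IP libraries the log2 difference was −0.40 for Nefh (SE 0.15), −0.46 for Nefm (SE 0.16), 0.29 for Prph (SE 0.16) and 0.58 for Vim (SE 0.20), with adjusted p between 0.737 and 0.783, so none passed.

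**Figure D5:**
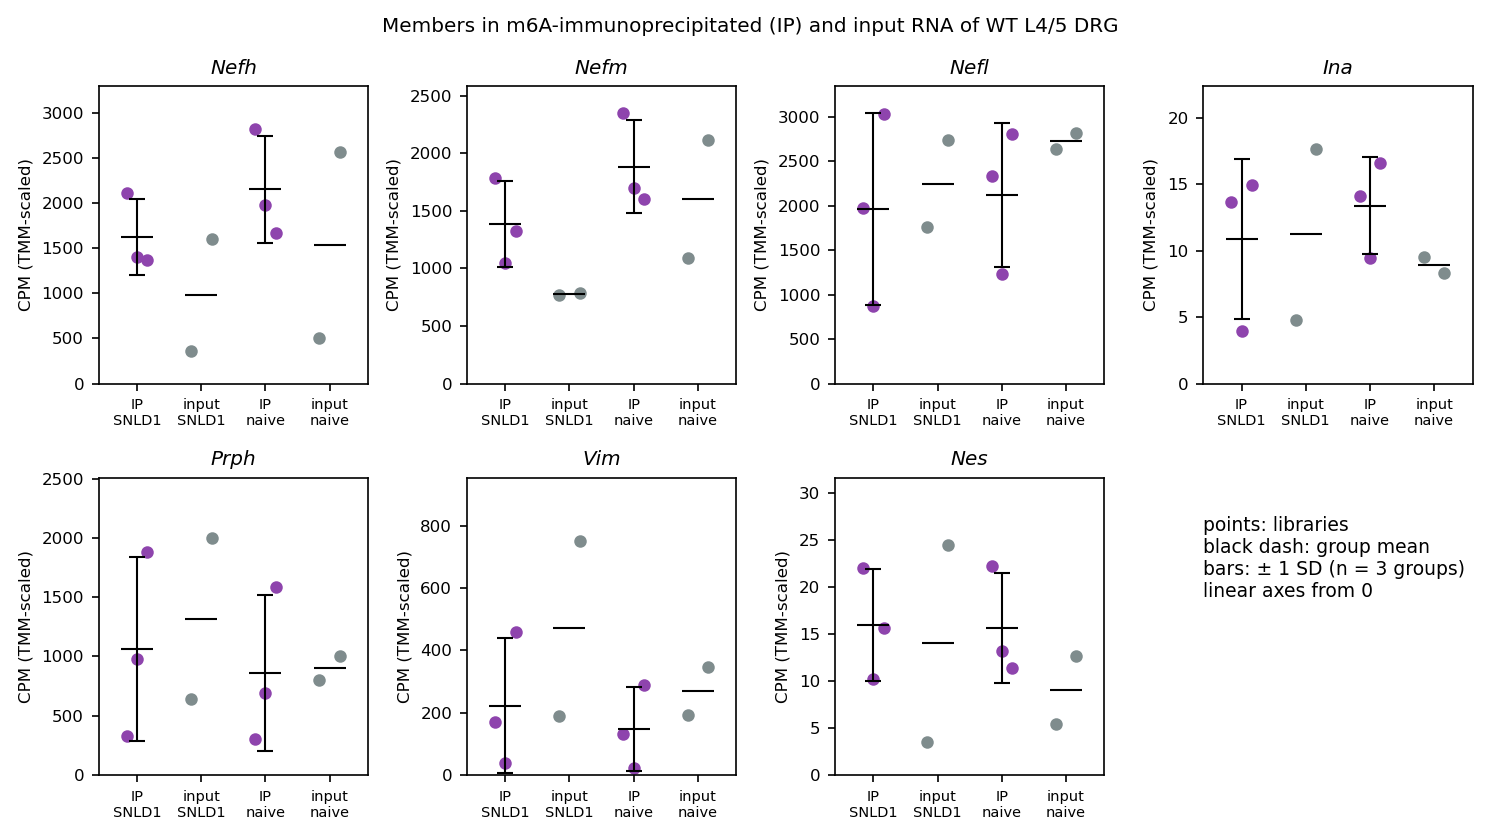
TMM-scaled CPM (vertical axis, linear from 0) of the 7 genes in IP and input libraries of wild-type ganglia (points), with group means and, where n = 3, ± 1 SD. The 2 inputs of a condition are far apart for Nefh, at 363 and 1597 CPM at SNLD1, and Nefm at SNLD1 is the 1 case in which IP libraries lie above both inputs.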

How the data were processed

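The authors deposited raw counts per gene symbol for RNA-seq and for MeRIP-seq. Per the submitters' processing notes, Trimmomatic, STAR, DESeq2 and the mm10 build were used; the sources used here do not give versions, the read counter or the miCLIP site caller. The deposited miCLIP lists give, in a column of unit other, a score equal within 1e-05 to mutated reads over reads at the base. Per the labels' protocols, poly(A) RNA went into Smart-seq2 libraries, which do not mark strand, so antisense reads cannot be told apart.

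Members and gene lists were chosen with earlier results of these data known. Counts were fitted in R 4.3.3 with edgeR 4.0.16 (filterByExpr, TMM, glmQLFit, glmQLFTest) to all 12 RNA-seq libraries, and separately to all 10 MeRIP-seq libraries, as 4 groups each; 13291 and 14705 genes were tested and p-values adjusted by Benjamini-Hochberg over them. The scripts were tested on simulated data. Log2 CPM used a prior count of 2. Sites were assigned to gene spans of GRCm38.p6 by Python 3.11.15, with exact (Clopper-Pearson) 95% intervals from scipy 1.17.1. From each list, called genes and up to 2 of smallest p-value were named. Correlations had been planned over 12 libraries and were run within genotypes. Replicate numbers paired the IP libraries across conditions (deviation correlations 0.682, 0.468 and 0.734). The 2 input pairs had 0.408 each, but with 2 per group these are 1 value and pairing was not taken as shown; IP and input, and RNA-seq, did not pair. Alternatives were DESeq2 1.42.0, size factors, no filter, a replicate block, a Y-linked covariate, fitting only the compared groups, and leaving out each library.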

Additional observations from a re-analysis of the deposited data

How the results depend on the processing

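With size factors, DESeq2, no filter, a replicate block, a Y-linked covariate or only the compared groups, the 3 neurofilament genes stayed lower in Mettl14cKO. Of 322 values of the 7 genes under such settings 300 kept their direction and side of the threshold, 14 newly passed, 1 no longer passed (Nefh in naive ganglia) and 7 changed sign. Nefm and Nefl passed in single conditions under the replicate block (log2 −0.61 and −0.71 at SNLD1, −0.70 and −0.81 in naive ganglia). Some same-numbered RNA-seq libraries deviated together (0.574 for WT library 2 and 0.349 for Mettl14cKO library 3, SNLD1 with naive) and others did not (down to −0.0601), so the numbers were not taken as pairs. The sign changes were Nefl after injury over both genotypes (−0.0064 without a filter and −0.013 with the block), Nes after injury in Mettl14cKO (0.10 with the Y-linked covariate), Prph IP over input in naive ganglia (0.017 with size factors, 0.017 with DESeq2 and 0.11 without the 3 smallest libraries, an alternative chosen after seeing the data) and Nes IP over input at SNLD1 (−0.38 without those libraries). The cause was not tested.

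Counts of called genes depended on the setting. Without a filter they were 281 (injury in Mettl14cKO), 256 (injury in WT), 560 (injury over both), 570 (genotype at SNLD1), 191 (genotype in naive ganglia), 857 (genotype over both), 24 (difference of injury effects), 6 (IP over input at SNLD1), 9 (naive) and 1 (injury within IP), against 91, 136, 340, 194, 38, 442, 0, 0, 0 and 0. With DESeq2 they were 192 (injury in Mettl14cKO), 211 (injury in WT), 416 (genotype at SNLD1), 77 (genotype in naive ganglia), 3 (difference), 4 (IP over input in naive ganglia), 8 (injury within IP) and 1 (injury within input). The genotype count at SNLD1 was 126 with only those 6 libraries. The replicate block gave 936 genes for IP over input at SNLD1 and 1078 in naive ganglia, and 1 for injury within IP (4 with only the IP libraries); IP and input numbers do not pair (−0.289 to −0.0173), and none of the 7 genes passed. No relation among members passed with or without TMM, but with n = 6 a single pair could not have passed.

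Without 1 library the counts ran from 48 to 116 (injury in Mettl14cKO), 61 to 137 (injury in WT), 212 to 372 (injury over both), 37 to 262 (genotype at SNLD1), 12 to 44 (genotype in naive ganglia), 228 to 507 (genotype over both) and 0 to 1 (difference). The 1 came without WT SNLD1 library 2. Counts moved by over 1.5 times without Mettl14cKO SNLD1 library 1 (genotype over both 228, genotype at SNLD1 37, injury over both 212, injury in Mettl14cKO 48) or 2 (genotype at SNLD1 84), Mettl14cKO naive library 1 (injury in Mettl14cKO 57), 2 (genotype over both 259, naive 14) or 3 (naive 19, injury in Mettl14cKO 54), WT SNLD1 library 1 (genotype at SNLD1 57) or 3 (genotype over both 261, at SNLD1 56, injury over both 217, in WT 75), and WT naive library 1 (genotype over both 235, naive 12, injury in WT 61), 2 (naive 17) or 3 (naive 19, injury in WT 64). Of 406 values of the 7 genes without 1 library, 354 kept direction and side of the threshold. Values not past the threshold that changed sign without 1 library ran as follows. After injury, Nefl ran from −0.082 to 0.11 over both genotypes, −0.021 to 0.11 in Mettl14cKO and −0.21 to 0.17 in WT; Prph from −0.068 to 0.025, −0.093 to 0.061 and −0.12 to 0.068; Nes in Mettl14cKO from −0.35 to 0.38. For genotype, Vim ran from −0.053 to 0.16 over both conditions, −0.12 to 0.32 at SNLD1 and −0.17 to 0.11 in naive ganglia; Prph from −0.026 to 0.15 at SNLD1 and −0.027 to 0.12 in naive ganglia; Ina at SNLD1 from −0.29 to 0.066; Nes in naive ganglia from −0.28 to 0.48. For IP over input at SNLD1, Ina ran from −0.69 to 1.21, Nefl from −0.65 to 0.17, Nes from −0.62 to 2.17, Prph from −0.996 to 0.74 and Vim from −2.18 to 0.24. In naive ganglia Nefh ran from −0.25 to 2.07, Nefm from −0.17 to 0.77 and Prph from −0.86 to 0.35.

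Of the members' sites, 10 in the SNL list and 7 in the naive list had at least 3 mutated reads. At least 20 reads were found at 34 and 27, so most site counts rest on few reads. Over all sites, 1.95% and 2.06% had at least 3 mutated reads, and 2.88% and 2.76% at least 20 reads. Allowing 2 bases, or either strand, left the counts within 1.5 times. Ratios per kilobase were not run, since transcript lengths were not used here. The large SE in MeRIP-seq (near 1) limits every statement on enrichment. Among called companion genes, Gfap, Mrgpra3, Ncmap, Dcn, Pdgfra and Apod passed over both conditions or genotypes without any 1 library.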
